A study of Mus musculus with 14 samples.

Results

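The genes described are those of cholesterol and fatty acid synthesis, followed through mouse pluripotent cells of 7 kinds. A list of 34 names covers the enzymes that turn acetyl-CoA into cholesterol or into long and unsaturated fatty acids, the SREBP proteins that control both pathways, and the sterol carrier Stard4. The names were chosen by known function, and they give 33 of the 24015 rows of the count table, because Sc4mol is an older symbol of Msmo1. Of these 33 genes, 32 passed the filter on low counts and were tested among 16247 genes. The other, Hmgcs1, which makes HMG-CoA, from which mevalonate is formed, is listed at 0 counts in all 14 libraries. This gene is known to be broadly expressed. Whether the 0 reflects its RNA or the counting was not tested, so it is described no further. By role, the tested genes comprise 6 of the mevalonate steps, 11 of the squalene and sterol steps, 5 of SREBP control, 1 of sterol transport and 9 of fatty acid synthesis.

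Cells make cholesterol from acetyl-CoA through mevalonate, isoprenoid units, squalene and lanosterol, and fatty acids from the same acetyl-CoA through malonyl-CoA. Both pathways are switched on by the SREBP transcription factors, which Scap escorts out of the endoplasmic reticulum when sterols are scarce and which the Insig proteins hold back when sterols are plentiful. Dividing cells use these lipids for membranes, and pluripotent cells in culture divide fast.

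Each group held 2 libraries, which the design text calls biological duplicates. Whether they came from separate cultures is not given, so p-values cover only the spread between the libraries of a group. Embryonic stem cells (ESC), derived from CD1/JF1 blastocysts and grown with LIF and feeder cells in GMEM with 15% knockout serum replacement (KSR), stand for the naive state. Epiblast stem cells (EpiSC), also derived from CD1/JF1 blastocysts, stand for the primed state and were grown in Knockout DMEM with 20% KSR and 10 ng/ml bFGF. MM401 inhibits Mll1, a histone methyltransferase. EpiSC were given 100 µM of it in LIF medium made with Knockout DMEM and KSR, and were sampled after 3 days (MM401 day 3) or after 6 days at passage 2 (MM401 P2, where the title of replicate 2 reads P2b). Reverted cells (rES) of the genotype CD1-deltaTSIX/JF1, grown from passage 3 on with MM401 at 25 µM, were taken at passage 6, at passage 30, and at passage 30 without MM401. MM401, LIF and medium changed together between EpiSC and the treated cells, and the rES groups also differ in genotype, so the effects of compound, medium, line and state cannot be told apart except where MM401 was withdrawn at passage 30.

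Depth was 20831588 to 23677089 counts in 10 libraries, and higher at MM401 day 3 (113221270 and 116086115 counts) and at MM401 P2 (74952496 and 80383376 counts). The 11 naive markers summed to 3860 and 3872 CPM (counts scaled to library size) in ESC, 569 to 590 in EpiSC and 5369 to 5586 in rES passage 30, and the 10 primed markers to 1087 to 1091, 1997 to 2009 and 331 to 336 in the same order. The 20 markers of fibroblast feeder cells summed to 19340 to 19680 CPM in MM401 P2, against 1968 to 6662 in all other libraries, with every marker above 0. The 16 markers of primitive endoderm summed to 6814 to 6833 CPM in ESC, against 1413 to 3001 elsewhere, with Ttr at 0 in EpiSC and Afp at 0 in rES passages 6 and 30. Library sizes for CPM were adjusted with TMM factors, and a gene was called (rose, fell, higher or lower) at a Benjamini-Hochberg adjusted p under 0.05 in edgeR's two-sided quasi-likelihood test over all 16247 genes. Reads of some members could come from other genes, because 50-base stretches of their transcripts recur elsewhere: 52.6% for Acaca, 45.9% for Acat2, 32.8% for Me1, 30.7% for Fdft1 and 30.5% for Idi1. Exons of some members also overlap other genes. On the same strand, 26.7% of Fdps exon bases are shared with Gm43738 and 12.1% of Tm7sf2 with Vps51. On the opposite strand, 18.3% of Fdft1 are shared with Ctsb and 13.2% of Scap with 5830462I19Rik. Library strand was not given, and the effect of these overlaps was not tested. In bulk RNA, fewer cells of a type and less RNA per cell cannot be told apart.

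The stretches just before the start sites of Dhcr7, Insig1, Fasn and Ebp are shown because these genes stand for the patterns described below: the last sterol step, which differed most between ESC and EpiSC, the feedback regulator, the fatty acid synthase and the sterol isomerase that ran against most members. They are RefSeq sequences of build GRCm38.p6, given from 5′ to 3′ on the strand of the gene and ended before any annotated exon. Capitals mark CCAAT (bound by NF-Y), GGGCGG (bound by Sp1) and CACGTG (an E-box) on either strand. Dhcr7 lies at chr7:143822917-143823144 (plus strand), Insig1 at chr5:28071162-28071362 (plus strand), Fasn at chr11:120824548-120824797 (minus strand) and Ebp at chrX:8193513-8193762 (minus strand).
Dhcr7: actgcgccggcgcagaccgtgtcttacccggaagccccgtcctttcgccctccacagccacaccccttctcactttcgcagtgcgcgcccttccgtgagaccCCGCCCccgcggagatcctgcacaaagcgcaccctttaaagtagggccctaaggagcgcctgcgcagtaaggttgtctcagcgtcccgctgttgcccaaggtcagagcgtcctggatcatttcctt
Insig1: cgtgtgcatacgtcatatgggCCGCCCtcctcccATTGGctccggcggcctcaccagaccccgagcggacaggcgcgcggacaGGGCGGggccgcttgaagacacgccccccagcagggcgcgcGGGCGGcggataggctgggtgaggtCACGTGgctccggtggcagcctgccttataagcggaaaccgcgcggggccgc
Fasn: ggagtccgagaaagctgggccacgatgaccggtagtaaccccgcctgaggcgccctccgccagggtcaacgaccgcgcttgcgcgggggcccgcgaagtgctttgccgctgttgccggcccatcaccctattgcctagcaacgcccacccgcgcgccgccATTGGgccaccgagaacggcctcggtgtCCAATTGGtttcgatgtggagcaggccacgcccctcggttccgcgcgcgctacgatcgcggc
Ebp: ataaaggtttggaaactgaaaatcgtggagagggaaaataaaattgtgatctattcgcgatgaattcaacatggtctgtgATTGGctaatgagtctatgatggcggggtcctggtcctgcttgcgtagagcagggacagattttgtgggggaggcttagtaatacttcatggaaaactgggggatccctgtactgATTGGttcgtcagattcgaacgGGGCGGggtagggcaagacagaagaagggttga
In the Fasn stretch, CCAAT and its reverse complement ATTGG overlap in the run CCAATTGG. RefSeq windows from 250 bases before to 50 bases after the start were at hand for 26 of the 33 genes, 35 windows in all. CCAAT was found on either strand in 22 of these windows (62.9%), against 37.4% of all 32851 windows and 37.2% of the 15116 windows of tested genes. GGGCGG was found in 26 (74.3%), against 35.7% and 58.9%, and CACGTG in 6 (17.1%), against 7.15% and 9.5%. TCACNCCAC, a form of the sterol response element that SREBPs bind, was found in 1 window (2.86%), that of Hmgcs1, against 1.24% and 1.22%. These matches describe letters in a window and were not tested as binding sites.

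ESC held the lowest mean CPM of the 7 groups for 23 of the 32 genes, and EpiSC the highest for 14. MM401 P2 held the highest for 8 and rES passage 30 without MM401 for 4. How often each group was lowest or highest over all genes tested was not counted, so these counts describe the members only. Summed over the 11 squalene and sterol genes, CPM were 573 and 582 in ESC, 786 and 780.0 in MM401 day 3, and between 1013 and 1105 in the other 5 groups. Summed over the 9 fatty acid genes, CPM were 4588 and 4583 in EpiSC, 2147 and 2137 in ESC, 2192 and 2154 at day 3, 2591 and 2459 at P2, and 3330 to 3471 in the rES groups. With TMM factors, the sterol sum at P2 (1105 and 1089) was at or above that of EpiSC (1089 in both libraries). The fatty acid sum lay far below both EpiSC libraries. TMM factors were 1.094 and 1.093 in EpiSC and 0.984 and 0.992 at P2, so the order of the sterol sums rests on the scaling. Sums with library totals were not computed.

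**Figure D1:**
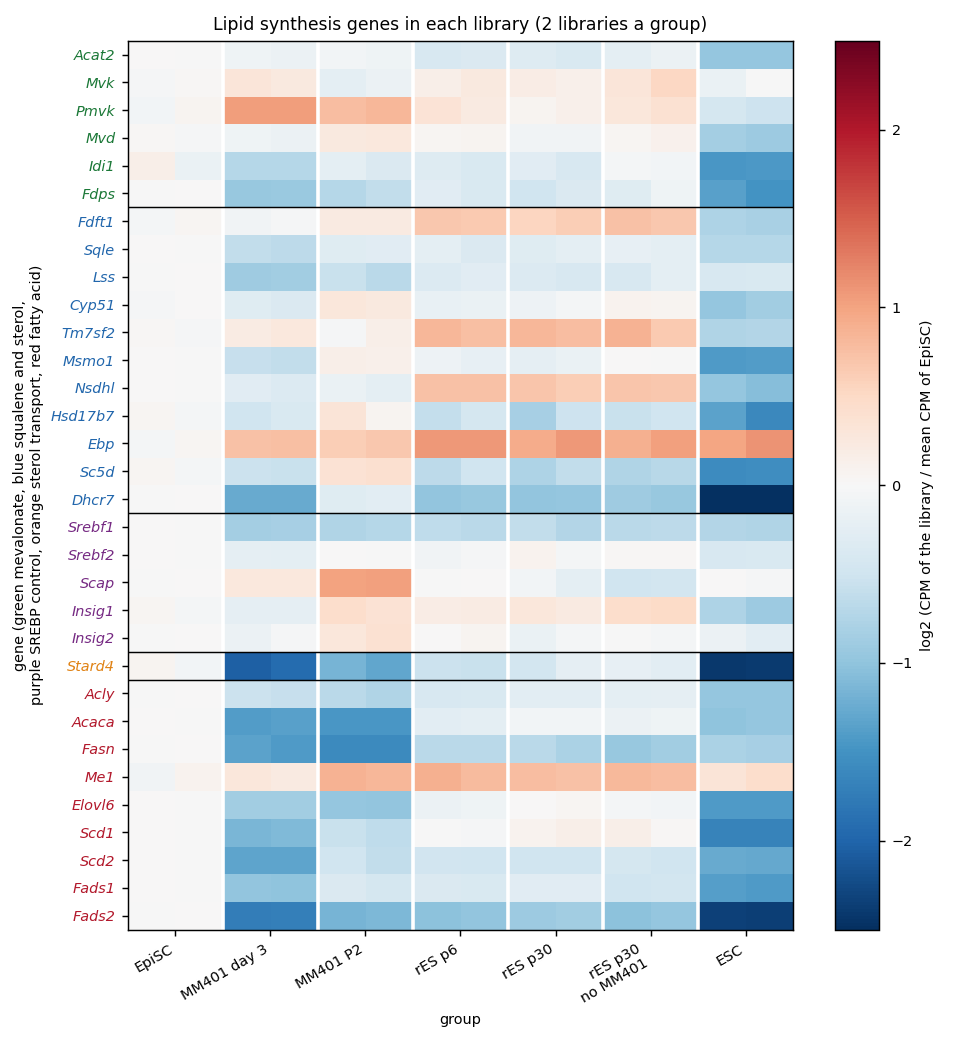
Level of each tested gene (rows, ordered by role and step) in each of the 14 libraries (columns, by group). Colours give log2 of the CPM of the library divided by the mean CPM of that gene in EpiSC. Most rows are lowest in the 2 ESC columns. The fatty acid rows other than Me1 are low in both MM401 day 3 columns.

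Compared with EpiSC, ESC held less RNA of nearly every gene of both pathways. Of the 32 genes, 28 fell, Ebp and Me1 rose, and Mvk and Scap were not called. Over all genes tested, 74.5% were called, 37.5% lower and 37.0% higher in ESC. Of the members, 13 fell by 2-fold or more and 1 rose as far, against 13.5% and 14.3% of all genes, and their median log2 fold change was -0.94, against -0.0003 over all genes. Primitive endoderm markers were higher in ESC for 15 of 15 tested, and their part in these differences was not tested.

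Along the mevalonate steps, 5 of 6 genes fell in ESC. Fdps, which joins isoprenoid units into farnesyl diphosphate, stood at 67.2 and 68.7 CPM in EpiSC and 26.4 and 24.0 in ESC, 2.7-fold lower (log2 -1.43 ± 0.07 SE, adjusted p = 4.16e-21). Idi1, the isopentenyl diphosphate isomerase and the least abundant member by CPM, read 7.43 and 5.99 in EpiSC and 2.44 and 2.47 in ESC. The groups did not overlap for either gene, both of which had been called, and how many of all genes separate was not counted. Acat2 (log2 -0.97), Mvd (-0.88) and Pmvk (-0.48) also fell, whereas the mevalonate kinase Mvk read 46.6 and 48.0 CPM in EpiSC and 42.1 and 47.0 in ESC.

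Of the 11 squalene and sterol genes, 10 fell in ESC and Ebp rose. Dhcr7, the reductase of the last step to cholesterol, stood at 159.8 and 161.5 CPM in EpiSC and at 28.8 and 28.6 in ESC. It was 5.61-fold lower in ESC (log2 -2.49 ± 0.05, adjusted p = 6.27e-34), and both ESC libraries lay below every other library. Sc5d, the sterol desaturase of the step before it, fell from 53.9 and 50.2 to 17.4 and 17.8 CPM (log2 -1.56 ± 0.07). Msmo1 (-1.41), which removes methyl groups from lanosterol derivatives, Hsd17b7 (-1.46) and Nsdhl (-1.02) fell by 2-fold or more as well. The other log2 fold changes were -0.91 for the lanosterol demethylase Cyp51, -0.79 for the squalene synthase Fdft1, -0.74 for the sterol reductase Tm7sf2, -0.72 for the squalene epoxidase Sqle and -0.39 for the lanosterol synthase Lss. Ebp, the sterol isomerase, ran the other way, at 35.6 and 37.8 CPM in EpiSC and 72.4 and 79.7 in ESC (log2 1.05 ± 0.06, adjusted p = 1.24e-18). EpiSC held less Ebp than any of the other 6 groups.

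Among the regulators, Srebf1 (log2 -0.74), Insig1 (-0.84), Srebf2 (-0.39) and Insig2 (-0.20) fell in ESC. The Insig2 call was lost without ESC replicate 2 (-0.14) or EpiSC replicate 2 (-0.18). Scap read 93.1 and 93.7 CPM in EpiSC and 93.9 and 91.9 in ESC. Stard4, which carries cholesterol between membranes, fell from 49.5 and 44.9 CPM to 8.86 and 8.99 (log2 -2.40 ± 0.09, adjusted p = 2.12e-24), 5.28-fold.

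Fatty acid synthesis was lower in ESC at 8 of 9 genes. Fads2, the first desaturase of polyunsaturated fatty acids, fell 5.06-fold, from 152.7 and 154.6 to 30.6 and 30.1 CPM (log2 -2.34 ± 0.05, adjusted p = 9.56e-33). Scd1 and Scd2, which make monounsaturated fatty acids, fell by 1.67 and by 1.27 on the log2 scale. The elongase Elovl6 (-1.41) and the desaturase Fads1 (-1.40) moved as far, and the enzymes of the synthesis itself moved less, with -0.97 for the citrate lyase Acly, -0.98 for the acetyl-CoA carboxylase Acaca and -0.81 for the synthase Fasn. Me1, a source of NADPH, rose from 21.1 and 23.8 to 28.1 and 30.5 CPM (log2 0.38 ± 0.08).

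**Figure D2:**
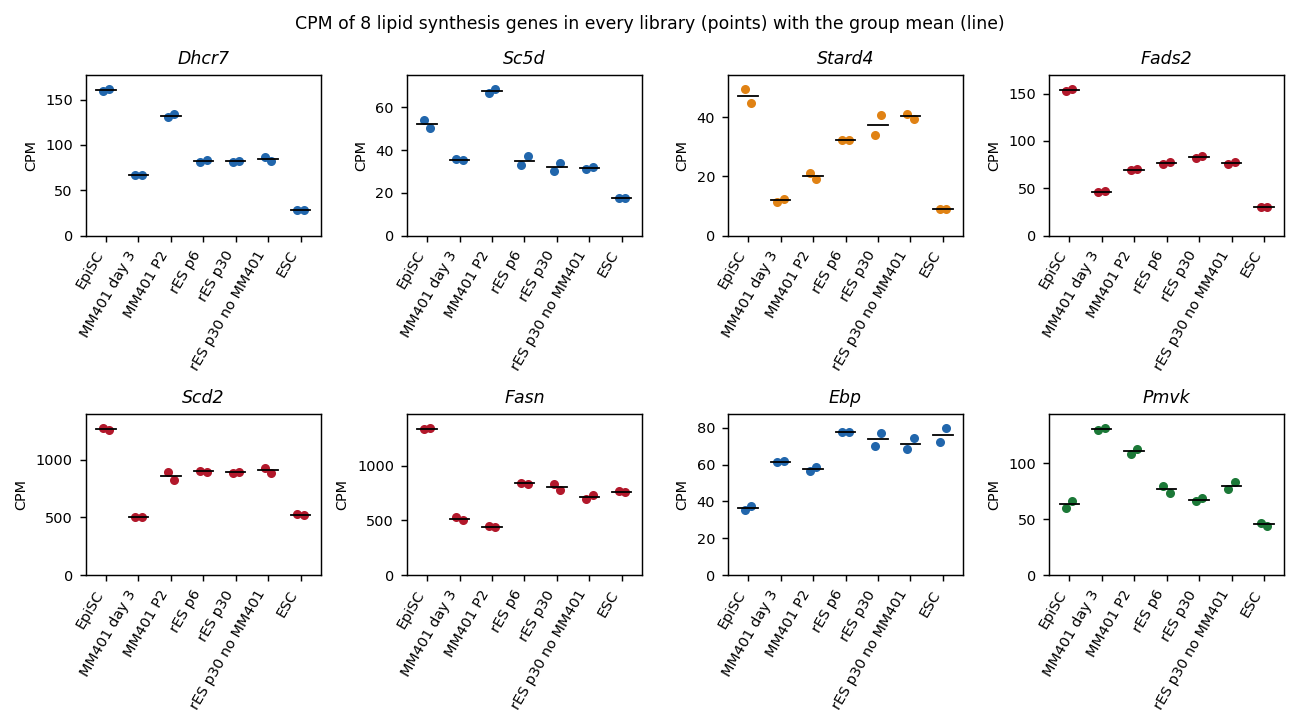
CPM of selected genes in each library (points) by group, with a linear axis from 0 for each gene. Dhcr7 is lowest in ESC and highest in EpiSC, Ebp is lowest in EpiSC, and Fasn is lowest in MM401 P2.

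After 3 days in LIF medium with MM401, the 9 fatty acid genes had a median log2 fold change of -1.12 against EpiSC, and the 6 mevalonate genes one of -0.13. Of the 32 genes, 24 fell, 6 rose (Mvk, Pmvk, Ebp, Tm7sf2, Scap and Me1), and Fdft1 and Insig2 were not called. Over all genes, 76.6% were called, 37.9% lower and 38.7% higher. Of the members, 8 fell by 2-fold or more and 1 rose as far, against 15.7% and 11.7% of all genes, and the members' median log2 fold change was -0.55, against 0.002 over all genes. With library totals in place of TMM factors, 2 members (Pmvk and Ebp) rose and 26 fell, so that the share of rises among calls went from 20.0% to 7.14%, and over all genes it went from 50.6% to 38.6%. Primitive endoderm markers were higher at day 3 for 13 of 15 tested, 7 of them by 2-fold or more, and their part in the member differences was not tested.

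Fasn stood at 1331 and 1340 CPM in EpiSC and at 531 and 503 at day 3, 2.58-fold lower (log2 -1.37 ± 0.04, adjusted p = 2.62e-30). Acaca fell from 34.8 and 34.2 to 13.0 and 13.5 CPM (log2 -1.38 ± 0.07), with the shared stretches noted above. Fads2 (-1.72), Scd2 (-1.32), Scd1 (-1.12) and Fads1 (-1.004) fell by 2-fold or more, and Elovl6 (-0.87) and Acly (-0.56) by less. No day 3 library reached the EpiSC level of any of these 8 genes. All 8 had been called lower, and how many of all genes separate in the same way was not counted.

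Stard4 was at 11.5 and 12.4 CPM at day 3 (log2 -1.98 ± 0.07 against EpiSC), and Dhcr7 at 66.9 and 66.7 (-1.27 ± 0.04). Of the other sterol genes, Lss (-0.88), Sqle (-0.63), Msmo1 (-0.60), Sc5d (-0.55), Hsd17b7 (-0.43), Cyp51 (-0.33) and Nsdhl (-0.32) fell. Ebp rose (0.75 ± 0.06), as did Tm7sf2 (0.23 ± 0.08), whose call was lost without EpiSC replicate 2 (0.21). Pmvk, the phosphomevalonate kinase, rose from 60.3 and 66.3 to 129.9 and 131.0 CPM (log2 1.04 ± 0.05, adjusted p = 1.36e-21), and day 3 was its highest group. Srebf1 fell from 191.6 and 187.6 to 105.7 and 107.2 CPM (-0.83 ± 0.04). The smaller differences of Acat2 (-0.13), Mvd (-0.13) and Me1 (0.26) lost their calls without EpiSC replicate 1 (-0.12, -0.10 and 0.18), and those of Acat2 and Mvd also without MM401 day 3 replicate 2 (-0.10 for both).

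At P2, after 6 days, most fatty acid genes were below EpiSC and the sterol genes stood on both sides of it. Against EpiSC, 12 of 32 genes rose and 17 fell, with 42.1% and 33.8% of all genes called in the same directions (75.9% in all). With library totals, 9 members rose and 19 fell, and over all genes the share of rises among calls went from 55.5% to 45.3%. Of the sterol genes 6 rose and 4 fell, whereas 8 of the 9 fatty acid genes fell and Me1 rose. Fasn stood at 446 and 441 CPM (log2 -1.59 ± 0.04), 3.01-fold below EpiSC, and Acaca at 12.6 in both libraries (-1.45 ± 0.07), 2.74-fold below it. With library totals, 3 of the 6 sterol rises were not called: Fdft1 (0.22, then 0.07, adjusted p = 0.109), Hsd17b7 (0.20, then 0.05) and Msmo1 (0.14, then -0.0047). The call of Hsd17b7 was also lost with RLE size factors and with DESeq2 (0.15 in both), and without EpiSC replicate 1 (0.24), EpiSC replicate 2 (0.15) or P2 replicate 1 (0.07), and that of Msmo1 with DESeq2 (0.09). Among the mevalonate genes, Mvd and Pmvk rose and Mvk, Idi1 and Fdps fell, with the call of Idi1 (-0.31) lost without EpiSC replicate 1 (-0.14) or P2 replicate 2 (-0.24) and that of Mvk (-0.19) without EpiSC replicate 2 (-0.17) or P2 replicate 1 (-0.14). Scap, the escort of the SREBPs, stood at 187.9 and 190.5 CPM, 2.03-fold above EpiSC (1.02 ± 0.04, adjusted p = 3.4e-23) and above every library of the other groups. All 20 feeder markers were also higher at P2 than in EpiSC and than at day 3, and 14 of 15 primitive endoderm markers were higher than in EpiSC, and their part in the member differences at P2 was not tested.

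P2 was also compared directly with day 3, and these groups differ in feeder markers as well as in days of treatment. Feeder markers summed to 19340 to 19680 CPM at P2 and to 6636 to 6662 at day 3. Their part in the differences below was not tested. Of the 32 genes, 23 rose and 6 fell, against 37.5% and 33.3% of all genes (70.8% in all). The members' median log2 fold change was 0.36, against 0.04 over all genes. Of the sterol genes 9 rose, Tm7sf2 fell and Ebp was not called, and all 5 regulators and Stard4 rose. Dhcr7 went from 66.9 and 66.7 to 130.8 and 133.9 CPM, 1.98-fold (log2 0.99 ± 0.04, adjusted p = 8.09e-24), and Sc5d from 35.6 and 35.2 to 66.6 and 68.4 (0.93 ± 0.05). Msmo1 (0.74), Hsd17b7 (0.63) and Cyp51 (0.59) followed, and Insig1, the protein that retains Scap, rose from 109.2 in both libraries to 172.6 and 164.7 CPM (0.63 ± 0.04, adjusted p = 3.29e-17). Scap rose by 0.76, Insig2 by 0.42 and Srebf2 by 0.23 on the log2 scale.

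Within fatty acid synthesis the enzymes parted between day 3 and P2. The 4 desaturases rose: Scd2 from 506 in both libraries to 894 and 826 CPM (log2 0.76 ± 0.03), Fads1 by 0.60, Fads2 by 0.58 and Scd1 by 0.53. Me1 rose by 0.59. In contrast, Fasn (-0.22 ± 0.04), Acly (-0.16 ± 0.03) and Elovl6 (-0.11 ± 0.03) fell further, and Acaca was not called (-0.07 ± 0.07). Along the mevalonate steps, Mvd (0.38), Idi1 (0.40) and Fdps (0.27) rose, whereas the kinases Mvk (-0.46 ± 0.05) and Pmvk (-0.24 ± 0.04) fell. The calls of Nsdhl (0.11), Srebf1 (0.09) and Tm7sf2 (-0.18) were lost with 1 library left out: Nsdhl and Tm7sf2 without day 3 replicate 2 (0.07 and -0.15) or P2 replicate 1 (0.07 and -0.10), and Srebf1 without either day 3 library (0.08 and 0.10) or P2 replicate 2 (0.07).

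**Figure D3:**
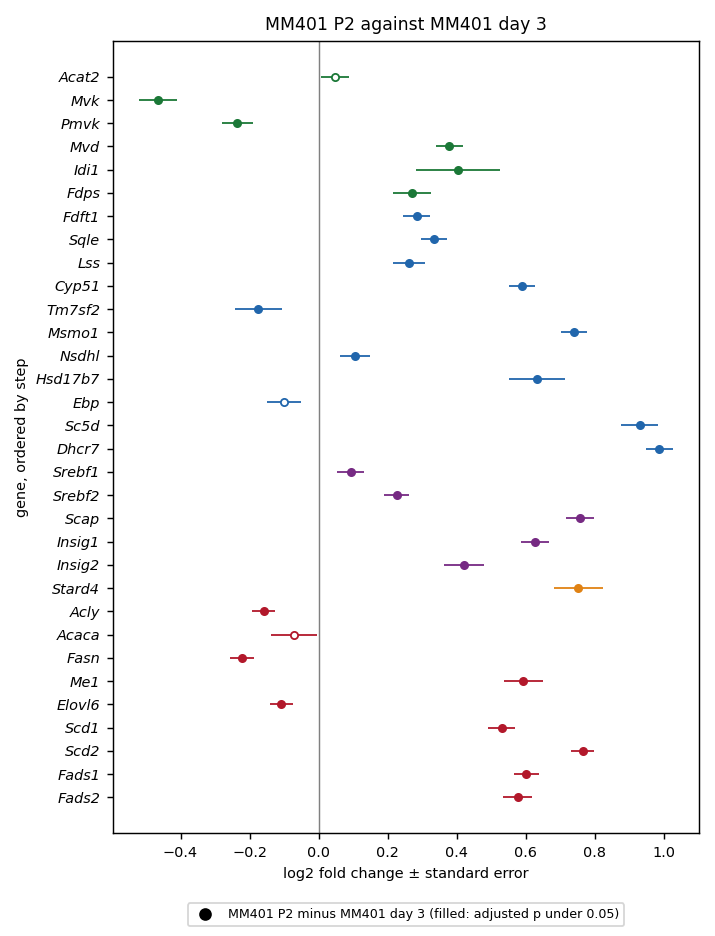
Log2 fold change of MM401 P2 against MM401 day 3 for the 32 tested genes, with standard errors as bars, filled where called, and coloured by role (mevalonate green, sterol blue, SREBP control purple, transport orange, fatty acid red). The 4 desaturases and Me1 lie right of 0 and Acly, Fasn and Elovl6 left of it.

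In the reverted cells at passage 30 and with TMM factors, every tested member but Ebp lay within 2-fold of its EpiSC level. Ebp (higher) and Dhcr7 (lower) both lay close to that limit. With library totals, the median log2 fold change of all genes moved from -0.02 to -0.17. Members beyond 2-fold were not counted there, so which ones pass the limit can change with the scaling. Against EpiSC, 8 of 32 genes rose and 18 fell at passage 30, with 38.0% and 38.3% of all genes called (76.3% in all). The difference of Ebp was log2 1.00 ± 0.06, while 15.4% of all genes rose and 16.5% fell by 2-fold or more. At passage 6, 8 rose and 19 fell, against 38.7% and 35.1% of all genes (73.8% in all). With library totals in place of TMM factors, 6 members rose and 23 fell at passage 30, and the share of rises went from 30.8% to 20.7%, while over all genes it went from 49.8% to 40.4%. At passage 6, 6 members then rose and 22 fell, and the share over all genes went from 52.4% to 43.9%. Feeder markers were lower at passage 30 than in EpiSC for 17 of 20, 13 of them by 2-fold or more, and primitive endoderm markers were higher for 10 of 15, and their part in the member differences was not tested. Calls at passage 30 that were lost with 1 library left out were those of Mvk (0.16, lost without either EpiSC library, at 0.14 and 0.18, or passage 30 replicate 1, at 0.13) and Idi1 (-0.34, lost without EpiSC replicate 1 at -0.17, passage 30 replicate 1 at -0.40 or replicate 2 at -0.28). Cyp51 (-0.09) was lost without either EpiSC library (-0.11 and -0.07) or passage 30 replicate 1 (-0.05), and without passage 30 replicate 2 Scap (-0.15) and Scd1 (0.12) were lost, at -0.08 and 0.09. With library totals Scd1 was at -0.034 and Mvk at 0.004, and neither was called. Mvk was also not called with DESeq2 (0.14). At passage 6, Mvk (0.20) and Idi1 (-0.35) were lost without EpiSC replicate 1 (0.18 and -0.19), Mvk also without passage 6 replicate 2 (0.15), and Idi1 also without either passage 6 library (-0.38 and -0.32). With library totals, the passage 6 calls of Mvk and Insig1 were lost (0.07 for both), and with DESeq2 that of Mvk (0.15).

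Dhcr7 stood at 81.3 and 82.4 CPM in rES passage 30, between ESC (28.8 and 28.6) and EpiSC (159.8 and 161.5). Its log2 fold change was -0.97 ± 0.04 against EpiSC and 1.51 ± 0.05 against ESC. Fads2, at 82.1 and 83.8 CPM, also lay between the references (-0.89 ± 0.05 and 1.45 ± 0.05). Nsdhl, a sterol dehydrogenase encoded on the X chromosome, stood at 116.1 and 110.5 CPM, above EpiSC (72.6 and 71.1) and above ESC (36.6 and 34.2). Fdft1, at 142.2 and 149.7 CPM, and Tm7sf2, at 33.4 and 32.1, were likewise above both references. Ebp, also X-linked, was at 70.1 and 77.4 CPM, overlapping the ESC range of 72.4 to 79.7. The genotype label of the rES groups names Tsix, a gene of the X chromosome, and that of the CD1/JF1 groups does not. Whether this difference bears on any of these levels was not tested.

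Against ESC, rES passage 30 held more RNA of 27 of the 32 genes, less of Scap, and Lss, Ebp, Srebf1 and Insig2 were not called. Over all genes, 71.1% were called, 35.3% higher and 35.8% lower. Of the members, 13 were higher by 2-fold or more, against 10.7% of all genes (12.6% were lower by as much), and their median log2 fold change was 0.81, against -0.01 over all genes. Stard4 stood at 34.1 and 40.6 CPM against 8.86 and 8.99 in ESC, 4.18-fold higher (2.06 ± 0.10, adjusted p = 1.67e-21). Scd1 was 3.47-fold higher, at 273 and 286 CPM against 80.2 and 80.7 (1.79 ± 0.04, adjusted p = 7.02e-31). All 6 mevalonate genes and all 9 fatty acid genes were called higher, but Fasn only just (0.08 ± 0.04, adjusted p = 0.0467), and its call was lost without ESC replicate 1 (0.09), ESC replicate 2 (0.07) or rES passage 30 replicate 1 (0.02). The calls of Mvk (0.25) and Scap (-0.15) were lost without ESC replicate 1 (0.17 and -0.13), and that of Scap also without rES passage 30 replicate 2 (-0.07). Feeder markers were lower in rES passage 30 for 19 of 20 genes and primitive endoderm markers for 14 of 15, and their part in the difference from ESC was not tested.

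**Figure D4:**
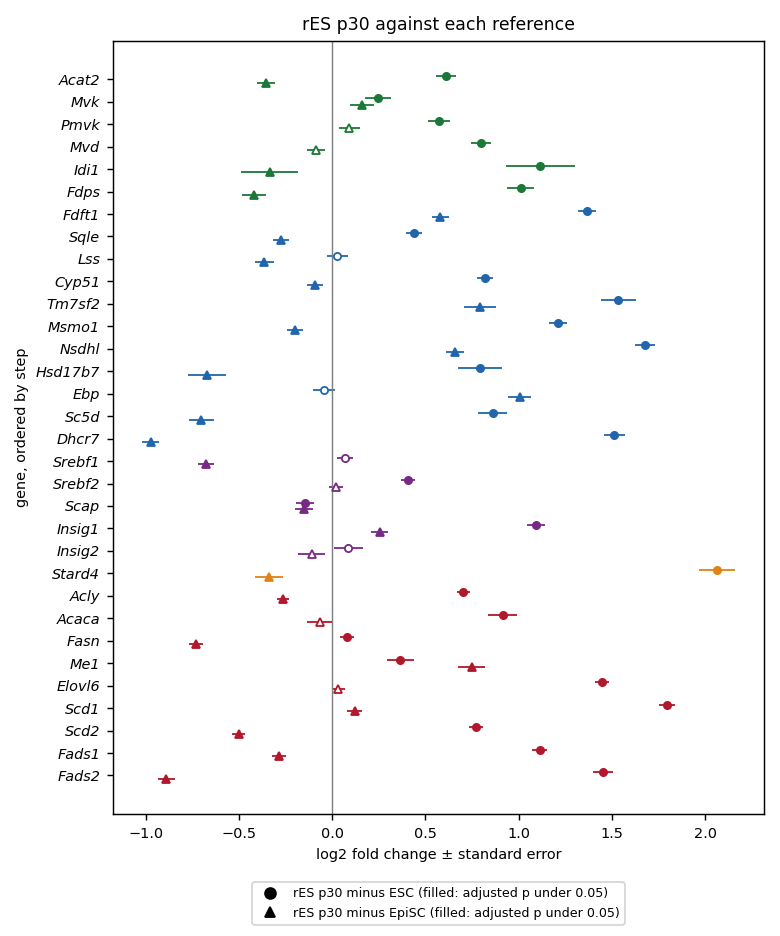
Log2 fold change of rES passage 30 against ESC and against EpiSC for the 32 tested genes, with standard errors as bars. The points against ESC lie mostly right of 0, and those against EpiSC lie on both sides of it, with Ebp, Tm7sf2, Me1, Nsdhl and Fdft1 to the right.

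The 2 stearoyl-CoA desaturase genes kept different proportions across the groups. Per length of merged exons, Scd2 exceeded Scd1 by a factor of 5.87 and 5.78 in ESC, 4.44 and 4.38 in EpiSC, 3.89 and 3.81 at day 3, 4.57 and 4.48 at P2, 3.17 and 3.18 in rES passage 6, 2.92 and 2.80 in rES passage 30, and 2.93 and 3.04 there without MM401. The ratio was lowest in the rES groups and highest in ESC, and the ranges of those groups did not overlap. It was not tested.

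Between passage 6 and passage 30 few members were called. Acly, Elovl6 and Scd1 rose and Mvd, Pmvk and Scap fell, 6 of 32 genes in all, against 11.3% of all genes called higher and 14.4% lower (25.6% in all). The largest of these differences was log2 -0.19 ± 0.05, for Pmvk. With RLE size factors, 9 members rose and 1 fell, and over all genes the share of rises among calls went from 43.9% to 54.3%, so the balance of rises and falls rests on the scaling for both. With library totals, 3 members rose and 4 fell, and the share over all genes was 33.3%. All 20 feeder markers were lower at passage 30 than at passage 6, 10 of them by 2-fold or more, and their part in the member differences was not tested. With 1 library left out, 2 to 6 members were called, and Elovl6 was called each time. Mvd (-0.15) was lost without any 1 of the 4 libraries (-0.14 to -0.15), Acly (0.13) without passage 6 replicate 1 (0.12), and Pmvk without that library (-0.13) or passage 30 replicate 1 (-0.15). Scap (-0.15) was lost without passage 30 replicate 2 (-0.07) or either passage 6 library (-0.16 and -0.14), and Scd1 (0.14) without passage 30 replicate 2 (0.10) or passage 6 replicate 2 (0.13).

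Withdrawal of MM401 at passage 30 was accompanied by small rises of the mevalonate genes. Of the 32 genes, 9 rose and 3 fell, against 10.4% and 9.3% of all genes (19.7% in all). The rises were those of Acat2, Mvk, Pmvk, Mvd and Fdps, 5 of the 6 mevalonate genes, of Fdft1, Cyp51 and Msmo1, and of Insig1. Mvk stood at 53.8 and 51.8 CPM with MM401 and at 58.2 and 67.9 without it (log2 0.26 ± 0.07, adjusted p = 0.00378), and Pmvk at 66.4 and 68.7 against 76.5 and 82.7 (0.24 ± 0.05, adjusted p = 0.00138). Insig1 stood at 155.8 and 149.2 CPM with MM401 and at 172.8 and 178.2 without it (0.20 ± 0.04, adjusted p = 0.000801). The groups did not overlap for these genes, which had been called, and how many of all genes separate in the same way was not counted. The largest of the 3 differences was 1.19-fold. The calls of all 5 mevalonate genes rest on replicate 2 of the cells without MM401: with it left out, log2 fold changes were 0.11 for Acat2, 0.14 for Mvk, 0.18 for Pmvk, 0.14 for Mvd and 0.12 for Fdps, with adjusted p from 0.0586 to 0.352. The call of Cyp51 (0.16) was lost without rES passage 30 replicate 1 (0.12), as were those of Fdft1 (0.09) and Fdps (0.15). Without rES passage 30 replicate 2, which held the largest share of the ribosomal RNA precursor Rn45s (2.005% of counts), Acat2 (0.13) and Mvk (0.23) were not called. Fdft1 was also lost without replicate 1 of the cells without MM401 (0.10).

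The 3 genes that fell on withdrawal were Scap, Fads1 and Fasn. Scap stood at 88.5 and 79.4 CPM with MM401 and at 66.4 and 68.4 without it (log2 -0.32 ± 0.05, adjusted p = 8.11e-06), its lowest level in the 7 groups. Fads1 fell by 0.19 and Fasn by 0.18.

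**Figure D5:**
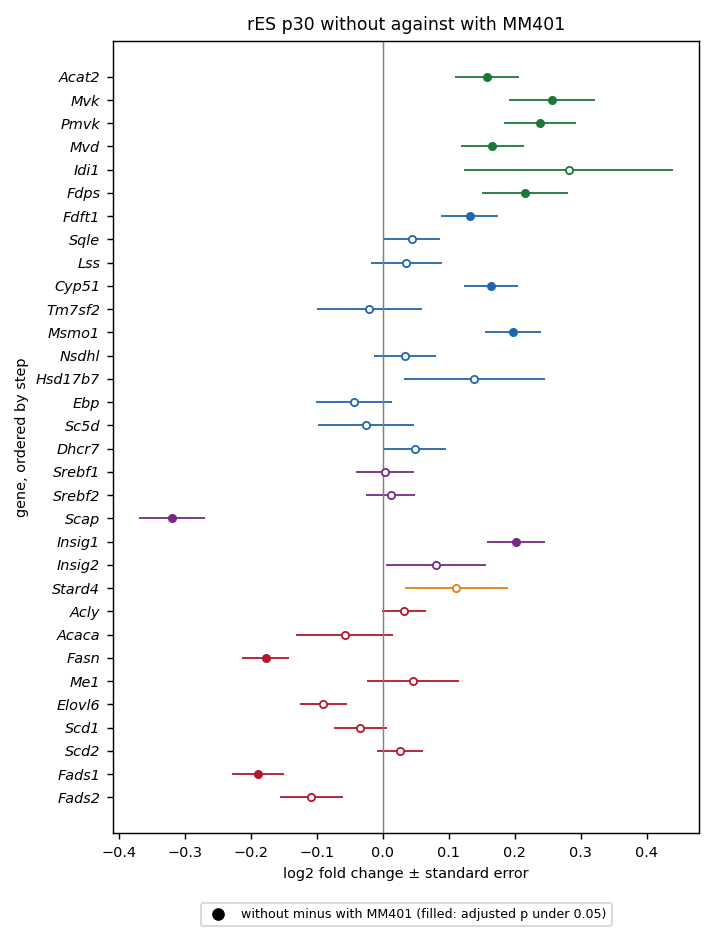
Log2 fold change of rES passage 30 without MM401 against the same passage with it for the 32 tested genes, with standard errors as bars, filled where called, and coloured by role (mevalonate green, sterol blue, SREBP control purple, transport orange, fatty acid red). All 6 mevalonate genes lie right of 0, 5 of them called, and Scap lies farthest left.

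Genes around both pathways were read from 5 further lists. In ESC, 16 of 22 genes of fatty acid oxidation fell and 4 rose against EpiSC, where 37.5% of all genes fell and 37.0% rose. Among them were Cpt1a (log2 -1.003), which admits fatty acids to mitochondria, and the medium-chain dehydrogenase Acadm (1.22). At MM401 day 3, 14 of the same 22 rose and 4 fell, where 38.7% of all genes rose and 37.9% fell. Cpt1a rose from 155.0 to 296.1 CPM on average (0.93 ± 0.04) and Acadm from 27.2 to 99.9 (1.87 ± 0.05). The ESC and day 3 comparisons share the EpiSC libraries, and the difference between them was not tested.

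The counts of the other 4 lists at day 3 stand against the same 38.7% and 37.9% of all genes. Of 18 genes of sterol uptake, storage and efflux, 8 rose and 8 fell, close to those shares. Soat1, which esterifies cholesterol for storage, fell from a mean of 406.9 CPM in EpiSC to 43.3 at day 3 (log2 -3.23 ± 0.05), and stood at 77.0 at P2, 86.7 in rES passage 30 and 130.8 in ESC. EpiSC thus held the highest of these 5 levels. The cholesterol exporter Abca1 rose from 45.2 CPM in EpiSC to 173.7 in rES passage 30 (1.94 ± 0.06). Among the 22 genes of fatty acid supply and use, 10 rose and 8 fell at day 3, also near the shares of all genes. Acacb, the carboxylase at mitochondria, rose from 18.3 to 72.2 CPM (1.98 ± 0.07) where Acaca fell, and the acyl-CoA synthetase Acsl4 fell from 167.9 to 39.6 (-2.08 ± 0.05). Of the 11 isoprenoid branch genes, 7 rose and 3 fell at day 3, led by the prenyltransferase subunit Rabggtb (1.42). Of 8 partners of SREBP processing, 1 rose and 5 fell at day 3, with Rnf145, a ubiquitin ligase of sterol sensing, at -1.19 ± 0.04.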

How the data were processed

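RNA of 14 libraries was sequenced single-end from TruSeq libraries after RNeasy and DNase purification, per the labels' protocols. The authors deposited raw read counts per gene symbol, from which all values were computed. TopHat2, Subread, DESeq and mm9 are named, without roles, per the submitters' processing notes. Library strand and the treatment of multi-mapping reads were not given in the sources used here. In the table, 2 columns matched no sample and were not used.

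Genes were kept with filterByExpr, scaled with TMM and tested with edgeR 4.0.16 (robust quasi-likelihood F test, R 4.3.3, limma 3.58.1) in 1 fit of all 14 libraries, adjusted over 16247 genes. The standard error (SE) of a log2 fold change is its size divided by the square root of F. Alternatives were RLE size factors, library totals, no filter, a fit of the 4 libraries compared, DESeq2 1.42.0, thinning to the shallowest library, a replicate block, leaving out Rn45s, and each library left out. The scripts were tested on simulated data. Every member may be named, and up to 4 called genes of each of 5 other lists, by smallest adjusted p. Members, lists and alternatives were chosen with earlier results of these data known. Exon lengths, exon overlaps and shared stretches came from GENCODE M21, a later build than mm9, and promoter windows from RefSeq, so neither gives positions in the authors' build.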

Additional observations from a re-analysis of the deposited data

Results flagged for a closer look

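A group of 7 members was called in opposite directions against EpiSC at MM401 day 3 and at MM401 P2, and the 2 time points differed from each other in the test of P2 against day 3. Both comparisons share the EpiSC libraries. Of these, 6 were below EpiSC at day 3 and above it at P2. Sc5d was at log2 -0.55 at day 3 and 0.38 at P2 (P2 minus day 3 0.93, adjusted p = 1.33e-18), and Msmo1 at -0.60 and 0.14 (0.74, adjusted p = 2.67e-20). Hsd17b7 was at -0.43 and 0.20 (0.63), Insig1 at -0.23 and 0.40 (0.63), Cyp51 at -0.33 and 0.26 (0.59) and Mvd at -0.13 and 0.25 (0.38). Mvk went the other way, at 0.27 and -0.19 (P2 minus day 3 -0.46, adjusted p = 1.09e-09). The opposite signs of 4 of the 7 rest on calls against EpiSC that were lost in 1 or more alternatives: those of Hsd17b7 and Msmo1 at P2, that of Mvd at day 3, and those of Mvk on both sides. Mvk was not called at day 3 with library totals (0.10, adjusted p = 0.143), nor at P2 without EpiSC replicate 2 (-0.17, adjusted p = 0.0597) or P2 replicate 1 (-0.14, adjusted p = 0.0646).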

How the results depend on the processing

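Over the alternatives, 3287 member values kept direction and call, 112 lost the call, 53 gained it and 4 reversed. A reversal is a change of sign in a gene called in either fit, and all came with library totals. These also moved the median of all genes against EpiSC to -0.17 in rES passage 30, -0.07 at P2, -0.17 at MM401 day 3 and -0.15 in ESC. In rES passage 30 against EpiSC, Elovl6 (-0.12, adjusted p = 0.00159) and Srebf2 (-0.13, adjusted p = 0.00199) were called only with library totals. Scd1 there (-0.034, adjusted p = 0.441) and Msmo1 at P2 against EpiSC (-0.0047, adjusted p = 0.916) lost their calls. No call thus turned into the opposite call. For rES passage 30 against passage 6, 6 members were called, and 10 with RLE size factors, and the cause was not tested. There 2 to 6 were called with 1 library left out, and 2711 to 3619 of all genes, against 4167. For withdrawal, 12 members were called, and 7 to 11 with 1 library left out, with 1991 to 2751 genes against 3200. Fits with fewer libraries hold less information. Same-numbered libraries did not deviate together (correlations of -0.0192 to 0.0402), so no pairing by number was seen. Such correlations cannot settle whether same-numbered libraries share a culture or batch. The replicate block gave 28 called members at P2 against EpiSC (29 without it), where Hsd17b7 was lost (adjusted p = 0.0649), and 7 in place of 6 for passage 30 against 6. Depth limits Idi1 most among the members tested, at 2.44 to 7.43 CPM.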
